A study of Mus musculus with 8 samples.

Results

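The growth hormone, STAT5 and IGF1 axis was followed through 10 genes in liver RNA-seq counts from 4 *Fxr*KO and 4 *Bcl6*LKO*Fxr*KO male mice. The genes were taken by symbol as the receptor *Ghr*, the kinase *Jak2*, the transcription factors *Stat5a* and *Stat5b*, the secreted products *Igf1* and *Igfals*, the feedback inhibitors *Socs2*, *Cish* and *Socs3*, and the phosphatase *Ptpn1*. All 10 were among the 24940 genes counted, and all 10 were among the 12340 with enough counts to be tested. Of them, *Ghr* and *Socs2* rose in *Bcl6*LKO*Fxr*KO livers and the other 8 were not called in either direction.

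Both groups carried floxed *Bcl6* alleles (Bcl6 fl/fl) and lacked *Fxr* (*Nr1h4*), the gene of the bile acid receptor FXR, in the whole body. The *Bcl6*LKO*Fxr*KO mice also carried Albumin-Cre, a recombinase transgene whose promoter is active in hepatocytes, to delete *Bcl6* there. Whether *Bcl6* was kept in the other cells of the liver was not measured here. *Fxr*KO therefore served as the control, and neither wild-type livers nor livers with *Bcl6* deletion alone were analysed here. The mice were C57BL/6 males, their ages are not stated, and nothing ties a liver to the time since its last growth hormone pulse. In the following, livers are numbered 1 to 4 within each genotype.

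Growth hormone binds GHR on hepatocytes, and the receptor-bound kinase JAK2 then phosphorylates STAT5, which enters the nucleus and activates genes such as *Igf1*, *Igfals*, *Socs2* and *Cish*. IGF1 and the acid-labile subunit encoded by *Igfals* circulate together in a complex with an IGF-binding protein, while SOCS2, CIS (encoded by *Cish*), SOCS3 and the phosphatase PTP1B (encoded by *Ptpn1*) dampen the signal. In male rodents growth hormone arrives in pulses, and hepatic STAT5 activity follows them. BCL6 is a transcriptional repressor whose DNA motif overlaps that of STAT5, and the pair compete for shared sites.

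The sequence motif shared by STAT5 and BCL6 is shown first, because the axis was chosen with that overlap in mind. The STAT core was searched as TTCNNNGAA, which reads the same on both strands, and the BCL6 motif as TTCCTAGAA, which is one form of that core and was searched on both strands. In RefSeq windows of 300 bases (250 before and 50 after each start site, build GRCm38.p6), the STAT core was in 8.3% of 32851 windows and the BCL6 motif in 0.411%. Windows were found for 9 of the 10 genes, *Socs2* being the one without, and 4 of their 14 windows held the core. These belonged to *Igfals*, *Cish* and *Socs3*, so 3 of 9 genes held it, against 9.55% of all 27025 genes with a window. No number of bound sites follows from these letters, since binding was not measured here.

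The stretches below show where the letters fall, with every STAT core in capitals and the rest in lower case, each read 5′ to 3′ on the strand of its gene. The *Igfals* stretch is chr17:24877981-24878230 on the plus strand, before a RefSeq start at 24878231. Its core lies 58 bases before that start site and is the BCL6 motif itself. The counted *Igfals* transcript starts further downstream, at 24878770, and the window nearest to it (start site 24878747) held no core. The *Socs3* stretch is chr11:117969367-117969616 on the minus strand, with a core 154 bases before the start. The *Cish* stretch is chr9:107296409-107296683 on the plus strand and runs 25 bases past the RefSeq start, because its 2 cores, TTCCTGGAA and TTCTTGGAA, begin on the first base and 11 bases after it. A GENCODE transcript of *Cish* starts further downstream, which places those cores 51 and 40 bases before that start. The *Ghr* stretch is chr15:3583353-3583602 on the minus strand, directly before the start of the counted transcript, and it holds neither motif.
Igfals: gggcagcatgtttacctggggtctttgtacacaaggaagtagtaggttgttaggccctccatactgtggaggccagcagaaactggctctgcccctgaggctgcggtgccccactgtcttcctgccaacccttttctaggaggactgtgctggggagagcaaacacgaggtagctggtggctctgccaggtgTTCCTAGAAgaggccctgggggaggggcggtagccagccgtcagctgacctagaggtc
Socs3: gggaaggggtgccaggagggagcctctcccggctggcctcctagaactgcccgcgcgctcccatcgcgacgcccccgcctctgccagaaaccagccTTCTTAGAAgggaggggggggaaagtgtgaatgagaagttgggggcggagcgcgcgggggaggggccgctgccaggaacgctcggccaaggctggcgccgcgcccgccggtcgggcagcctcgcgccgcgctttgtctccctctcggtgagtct
Cish: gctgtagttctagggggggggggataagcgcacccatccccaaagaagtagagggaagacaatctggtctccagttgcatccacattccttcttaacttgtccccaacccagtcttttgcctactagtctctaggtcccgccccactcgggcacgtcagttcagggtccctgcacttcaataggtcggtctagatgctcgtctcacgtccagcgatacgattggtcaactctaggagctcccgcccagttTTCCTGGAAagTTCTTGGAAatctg
Ghr: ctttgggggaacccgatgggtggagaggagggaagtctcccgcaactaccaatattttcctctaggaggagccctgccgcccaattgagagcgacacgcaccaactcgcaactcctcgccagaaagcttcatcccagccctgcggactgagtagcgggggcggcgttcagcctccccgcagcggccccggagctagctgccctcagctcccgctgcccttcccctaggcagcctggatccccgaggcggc
An additional *Igfals* window held the core TTCTCAGAA, 236 bases before its start site. None of the windows of *Ghr*, *Jak2*, *Stat5a*, *Stat5b*, *Igf1* or *Ptpn1* held the core, which says nothing of sites outside these windows.

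The libraries held between 7586241 and 11839503 counts on genes, and a floor of 3 counts, which covers counting error only, was between 0.272 and 0.374 CPM (the reads of a gene in each library after TMM factors bring all libraries to one size). The lowest count of any axis gene in any liver was 55, for *Cish* in *Fxr*KO liver 4. *Bcl6* itself ranged from 21.2 to 65.2 CPM in *Fxr*KO livers and from 4.61 to 11.9 CPM in *Bcl6*LKO*Fxr*KO livers, with *Fxr*KO liver 3 lowest among the controls. *Nr1h4* was still counted in both genotypes (60 ± 2.46 and 43.5 ± 3.69 CPM, SD, n = 4 each), and the count covers all of its exons, so it does not test the knockout. It was called lower in *Bcl6*LKO*Fxr*KO livers, without overlap (log2 fold change -0.46, adjusted p = 0.00497, edgeR), and the cause was not tested. The 50 most counted genes held 29.8% to 31.2% of counts in the *Fxr*KO group and 40.7% to 44.1% in *Bcl6*LKO*Fxr*KO livers. The labels give no batch and number every library separately, and the chi-square statistic comparing livers of one genotype was 10.8 to 49.9 times its degrees of freedom. Of 10 hepatocyte markers listed, 9 were among the genes counted, and these were present in all livers. Called higher were 2 of the 9 and called lower 3, against 16.2% and 13.5% of all tested genes. Their summed level was 63340 to 74920 CPM in *Fxr*KO livers and 149900 to 172300 CPM in *Bcl6*LKO*Fxr*KO livers. *Alb* is a large part of it (4.04% to 5.16% of counts against 11.9% to 13.2%).

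*Ghr*, the receptor through which the liver senses growth hormone, changed most among the 10 genes. Its levels were 373, 412, 458 and 441 CPM in *Fxr*KO livers 1 to 4 and 2207, 1984, 2350.1 and 1571 CPM in *Bcl6*LKO*Fxr*KO livers 1 to 4. All 4 *Bcl6*LKO*Fxr*KO livers lay far above all 4 controls, and the lowest of them, liver 4, was still above the highest control by more than the range within either group. The mean went from 421 ± 37.0 to 2028 ± 340.0 CPM (SD, n = 4 each), a log2 fold change of 2.27 (SE 0.15, adjusted p = 2.1e-07, from the quasi-likelihood fit of edgeR, adjusted by Benjamini and Hochberg's method over all tested genes). This is a 4.82-fold rise with a 95% interval from 3.86 to 6.02. The exact two-sided permutation p was 0.029, the smallest that 8 livers in groups of 4 allow. The gene (NM_010284) lies on the minus strand of mm10 chromosome 15 from 3317755 to 3583352, and no exon of another gene overlaps its exons in GENCODE. Its rise was called under every alternative tried, with log2 fold changes between 2.11 and 2.37.

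Downstream of the receptor, the signal-transducing members stayed close to the control levels. *Jak2*, the kinase bound to GHR, was at 12.4, 12.1, 10.4 and 15.4 CPM in *Fxr*KO livers and at 13.2, 16.9, 16.9 and 11.9 CPM in *Bcl6*LKO*Fxr*KO livers. The groups overlapped over most of their range. Its log2 fold change was 0.22 (SE 0.17, adjusted p = 0.354, edgeR), with an interval from 0.90-fold to 1.5-fold.

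*Stat5b*, the main STAT5 of the male mouse liver, was at 47.8, 61.1, 42.6 and 44.0 CPM among *Fxr*KO livers and at 60.2, 45.9, 45.3 and 35.3 CPM in *Bcl6*LKO*Fxr*KO livers. *Stat5a* was at 20.9, 20.6, 13.3 and 11.4 CPM among *Fxr*KO livers and at 18.2, 18.9, 12.7 and 12.3 CPM in *Bcl6*LKO*Fxr*KO livers. In both genotypes, livers 1 and 2 stood above livers 3 and 4 for *Stat5a* (the numbers pair no livers), and the genotypes overlapped for both genes. The log2 fold changes were -0.06 for *Stat5b* (SE 0.16, adjusted p = 0.798, edgeR, interval 0.75-fold to 1.22-fold) and -0.10 for *Stat5a* (SE 0.22, adjusted p = 0.778, edgeR, interval 0.67-fold to 1.30-fold). The 2 genes are neighbours on chromosome 11, 8765 bases apart. Of all exon bases that GENCODE annotates for *Stat5a*, 72 are shared with *Stat3* on the opposite strand, and the overlap with the counted transcript was not computed. Since the stated counting options name no strand, reads from those bases cannot be assigned to one or the other.

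*Igf1*, which encodes the growth factor that the liver releases in response to growth hormone, did not rise with *Ghr*. It was at 268, 286, 409 and 263 CPM in *Fxr*KO livers and at 276, 321, 233 and 163 CPM in *Bcl6*LKO*Fxr*KO livers. *Fxr*KO liver 3 was the highest of all 8 and *Bcl6*LKO*Fxr*KO liver 4 the lowest, while the other livers overlapped. The log2 fold change was -0.30 (SE 0.20, adjusted p = 0.283, edgeR), with an interval from 0.60-fold to 1.10-fold. Without *Fxr*KO liver 3 it was -0.14, and without *Bcl6*LKO*Fxr*KO liver 4 it was -0.15, each less than 1 SE of the full fit away from 0. *Igf1* (NM_010512) lies on the plus strand of chromosome 10 from 87859052 to 87937047.

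*Igfals*, the STAT5 target with the BCL6 motif printed above, was at 132, 96.1, 156 and 91.1 CPM among *Fxr*KO livers and at 137, 151, 112 and 150.4 CPM in *Bcl6*LKO*Fxr*KO livers. The *Bcl6*LKO*Fxr*KO values fell inside the range of the controls. The log2 fold change was 0.21 (SE 0.17, adjusted p = 0.373, edgeR), with an interval from 0.90-fold to 1.5-fold. *Igfals* (NM_008340) lies on chromosome 17 from 24878770 to 24882008.

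Among the feedback inhibitors, *Socs2* rose and *Cish* and *Socs3* were not called. *Socs2*, which encodes an inhibitor of GHR signalling that STAT5 induces, was at 24.1, 8.75, 17.2 and 9.37 CPM among *Fxr*KO livers and at 38.3, 86.8, 41.0 and 24.8 CPM in *Bcl6*LKO*Fxr*KO livers. The groups did not overlap, but only narrowly, since *Bcl6*LKO*Fxr*KO liver 4 was just above *Fxr*KO liver 1, and *Bcl6*LKO*Fxr*KO liver 2 stood well above the rest. The log2 fold change was 1.67 (SE 0.47, adjusted p = 0.0318, edgeR), a 3.19-fold rise with an interval from 1.49 to 6.80. The call was lost without *Fxr*KO liver 2 (adjusted p = 0.0648, edgeR), 3 (0.0592) or 4 (0.0709), without *Bcl6*LKO*Fxr*KO liver 3 (0.0586), and without the filter on low counts (0.074), at log2 fold changes of 1.49, 1.74, 1.5, 1.74 and 1.64. Without *Bcl6*LKO*Fxr*KO liver 2 the call was kept at a log2 fold change of 1.21. *Socs2* (NM_007706) lies on the minus strand of chromosome 10 from 95411490 to 95416857.

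*Cish*, which encodes the SOCS family member CIS and carries the tandem STAT cores printed above, was at 13.0, 21.1, 18.2 and 5.20 CPM among *Fxr*KO livers and at 17.9, 51.5, 31.3 and 19.3 CPM in *Bcl6*LKO*Fxr*KO livers. As for *Socs2*, the highest value was in *Bcl6*LKO*Fxr*KO liver 2, but livers 1 and 4 of that genotype lay within the control range. The log2 fold change was 1.07 (SE 0.48, adjusted p = 0.137, edgeR), with an interval from 0.97-fold to 4.53-fold. Between 0.67 and 1.30 on the log2 scale with each liver left out, it was called under none of the alternatives. GENCODE places exons of *Gm17040* and *Gm17041* on the opposite strand over 740 of the 6419 exon bases annotated for *Cish*. The counted transcript has 3009 bases, and the overlap with it was not computed, so how far the counts are affected is not known.

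*Socs3*, which encodes an inhibitor induced by STAT3 as well as by growth hormone, was the most variable member in the controls. It was at 25.9, 36.0, 6.02 and 8.52 CPM among *Fxr*KO livers and at 12.6, 22.9, 17.3 and 9.81 CPM in *Bcl6*LKO*Fxr*KO livers. *Fxr*KO livers 1 and 2 were above every *Bcl6*LKO*Fxr*KO liver and livers 3 and 4 were below every one. The log2 fold change was -0.28 (SE 0.58, adjusted p = 0.755, edgeR), and the interval from 0.32-fold to 2.12-fold shows how little these 8 livers fix it.

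*Ptpn1*, which encodes the JAK2 phosphatase PTP1B, was at 39.1, 36.9, 29.8 and 32.0 CPM among *Fxr*KO livers and at 36.1, 51.1, 42.9 and 39.0 CPM in *Bcl6*LKO*Fxr*KO livers. The groups overlapped. Its log2 fold change was 0.29 (SE 0.14, adjusted p = 0.124, edgeR), with an interval from 1-fold to 1.5-fold.

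**Figure D1:**
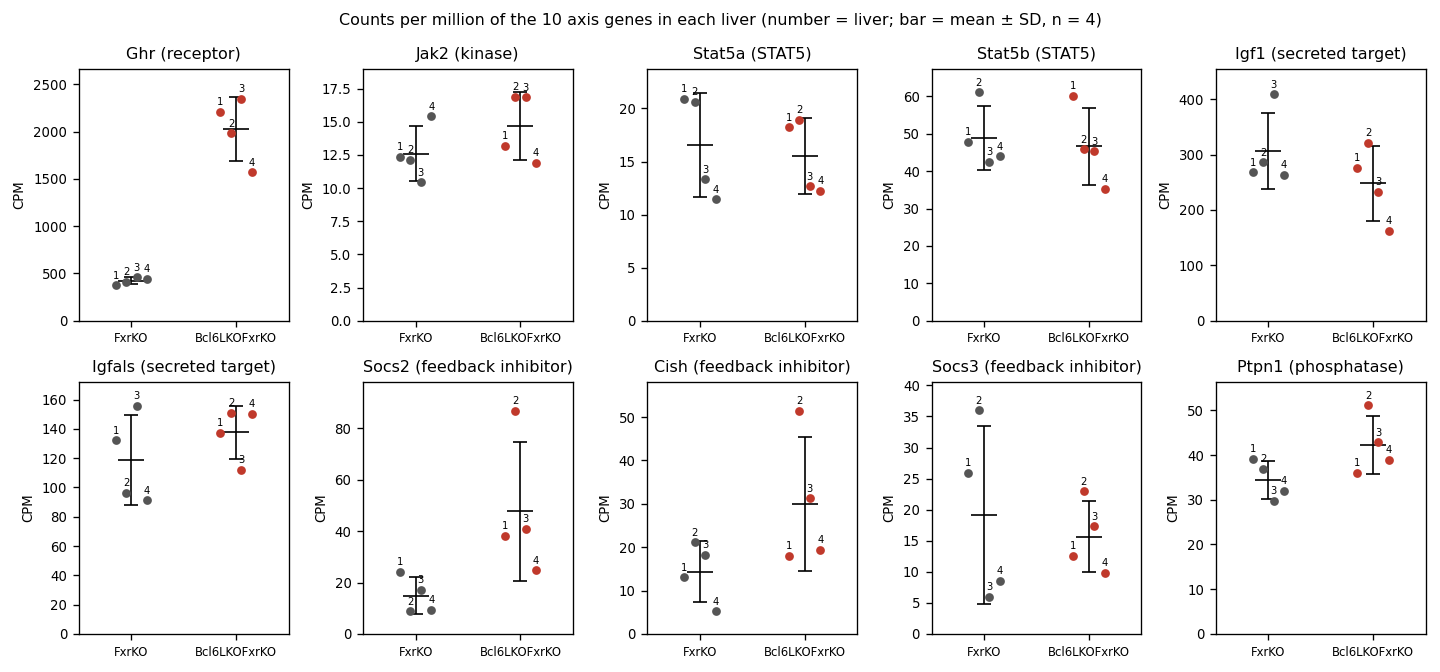
CPM (y axis, from 0) of each of the 10 axis genes in the 4 *Fxr*KO (grey) and 4 *Bcl6*LKO*Fxr*KO (red) livers, with the liver number above each point and the mean ± SD as a bar. *Ghr* (373 to 458 against 1571 to 2350.1 CPM) and, narrowly, *Socs2* (8.75 to 24.1 against 24.8 to 86.8 CPM) are the panels in which the genotypes do not overlap.

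Thus 2 of the 10 axis genes (20%) were called, against 29.7% of all tested genes. Both were called higher, against 16.2%, and 0 were called lower, against 13.5%. Both also passed the added threshold of 0.5 on the log2 scale, as did 14.1% of tested genes upward and 9.84% downward. The same 2 genes were those whose groups did not overlap, as was the case for 31.3% of tested genes (16.1% upward and 15.2% downward). The share called higher was near that of all genes. No member was lower at an unadjusted p under 0.05 in edgeR, and DESeq2 and limma voom also called 0 lower. With total counts alone as scaling, 1404 genes were higher and 2949 lower, against 1994 and 1665 with TMM, and the log2 fold changes of all genes shifted by a median of -0.16. The 2 calls among the axis genes were kept under that scaling. The median log2 fold change over the 10 genes was 0.22, against 0.01 over all tested genes.

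**Figure D2:**
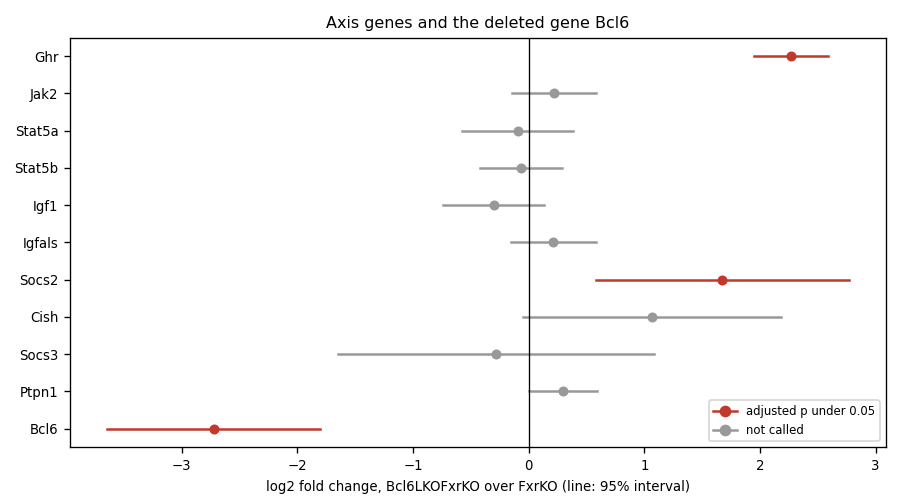
log2 fold changes of *Bcl6*LKO*Fxr*KO over *Fxr*KO livers (x axis) for the 10 axis genes and *Bcl6*, with 95% intervals from edgeR as lines and genes with an adjusted p under 0.05 in red. The intervals of *Ghr* (1.95 to 2.59) and *Socs2* (0.58 to 2.77) lie above 0, that of *Bcl6* (-3.65 to -1.81) lies below it, and the others include 0.

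The spread between livers of one genotype was widest for the feedback inhibitors. The coefficient of variation of CPM in *Fxr*KO livers was 8.80% for *Ghr*, 12.5% for *Ptpn1*, 16.5% for *Jak2* and 17.3% for *Stat5b*. It was 22.5% for *Igf1*, 25.8% for *Igfals* and 29.6% for *Stat5a*. For the feedback inhibitors it was 49.0% (*Socs2*), 48.5% (*Cish*) and 74.9% (*Socs3*). In *Bcl6*LKO*Fxr*KO livers the inhibitors again varied most, at 56.6%, 51.7% and 36.8%. The other members lay between 13.2% (*Igfals*) and 27.2% (*Igf1*), with *Ghr* at 16.8% and *Jak2* at 17.3%. *Socs2* was highest over lowest by 2.76 times among the controls and by 3.50 times among the *Bcl6*LKO*Fxr*KO livers, and the difference between genotypes is about as large as the spread within one. Where each liver stood relative to a growth hormone pulse was not recorded, and its part in this spread was not tested.

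Levels can be compared between genes only per transcript length. As RPKM (CPM divided by the length of the counted transcript in kilobases) the receptor was the highest of the axis genes in both genotypes. In *Fxr*KO livers *Ghr* was at 98.2 ± 8.64 RPKM (SD, n = 4), followed by *Igfals* at 56.4 ± 14.5 and *Igf1* at 43.0 ± 9.69 RPKM. *Stat5b*, *Ptpn1*, *Socs3* and *Socs2* lay between 6.70 and 9.97 RPKM with overlapping spreads. *Cish* was at 4.78, *Stat5a* at 4.29 and *Jak2*, the lowest, at 2.5 RPKM.

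In *Bcl6*LKO*Fxr*KO livers *Ghr* reached 473 ± 79.3 RPKM (SD, n = 4), while *Igfals* (65.3 ± 8.64 RPKM) and *Igf1* (34.9 ± 9.47 RPKM) came next in the same order. *Socs2* (21.5 ± 12.2 RPKM) followed, and its spread overlapped those of *Ptpn1* (10.1 ± 1.55), *Cish* (9.97 ± 5.15) and *Stat5b* (9.52 ± 2.09). *Jak2* remained lowest at 2.92 ± 0.51 RPKM. Among all tested genes, the RPKM of *Ghr* moved from the percentile 94.6 to 98.9 and that of *Socs2* from 55.9 to 80.8, whereas *Igf1* went from 88.9 to 87.0 and *Jak2* from 33.3 to 35.3.

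**Figure D3:**
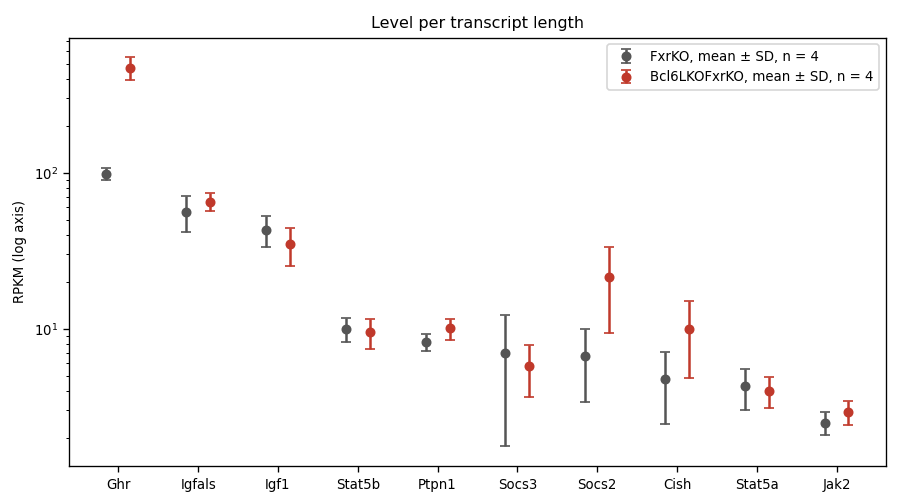
RPKM per gene (y axis, log scale), as mean ± SD of 4 *Fxr*KO livers (grey) and 4 *Bcl6*LKO*Fxr*KO livers (red), with genes ordered by their level in *Fxr*KO livers. *Ghr* is highest in both genotypes (98.2 and 473 RPKM) and *Jak2* lowest (2.5 and 2.92 RPKM).

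Because the genotypes differed in how much of each library a few genes took up, 7 ratios of axis genes were also formed within each liver, which no scaling between libraries can change. These ratios, of RPKM, were chosen after the data had been seen, and their permutation p-values are exact and two-sided, with values adjusted over the 7 beside them, none of which passed 0.05. The ratio of *Ghr* to *Igf1* was 2.31, 2.39, 1.86 and 2.79 in *Fxr*KO livers and 13.3, 10.3, 16.7 and 16.03 in *Bcl6*LKO*Fxr*KO livers. Every *Bcl6*LKO*Fxr*KO liver thus held far more receptor transcript per *Igf1* transcript than any control, with a 5.98-fold change of the geometric mean (exact permutation p = 0.029, adjusted 0.067, 4 of 4 livers). The ratio of *Ghr* to *Jak2* went from 40.1 ± 8.06 to 163 ± 24.4 (SD, n = 4 each, 4.1-fold, exact permutation p = 0.029, adjusted 0.067), again without overlap.

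The ratio of *Stat5b* to *Stat5a* was 2.42 ± 0.51 in the *Fxr*KO group and 2.4 ± 0.4 after loss of *Bcl6* (SD, n = 4 each, exact permutation p = 1, adjusted 1). The ratio of *Socs2* to *Igf1*, both STAT5 targets, was 0.289, 0.0983, 0.135 and 0.115 in the *Fxr*KO group and 0.445, 0.868, 0.565 and 0.489 in *Bcl6*LKO*Fxr*KO livers. The groups were further apart than for *Socs2* alone, with a 3.95-fold change (exact permutation p = 0.029, adjusted 0.067). For *Cish* to *Igf1* the ratio went from 0.110 ± 0.052 to 0.283 ± 0.095 (SD, n = 4 each, exact permutation p = 0.057, adjusted 0.1), with *Bcl6*LKO*Fxr*KO liver 1 inside the control range. The ratios of *Igf1* to *Igfals* (0.778 ± 0.126 and 0.540 ± 0.147, exact permutation p = 0.086, adjusted 0.1, n = 4 each) and of *Socs3* to *Socs2* (1.31 ± 1.38 and 0.288 ± 0.058, exact permutation p = 0.086, adjusted 0.1, n = 4 each) overlapped between genotypes.

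**Figure D4:**
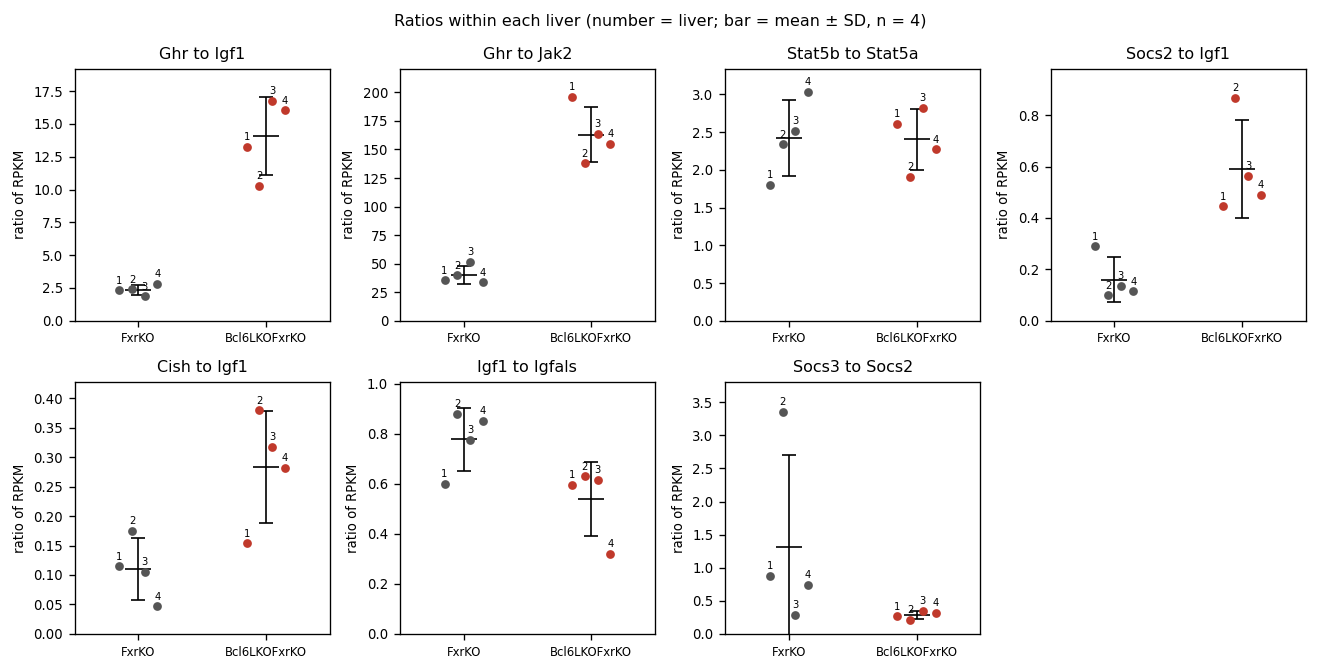
Ratio of the RPKM of 2 axis genes within each liver (y axes, from 0), with liver numbers above the points and mean ± SD as bars (the lower end of the SD of *Socs3* to *Socs2* in *Fxr*KO livers is cut at 0). *Ghr* to *Igf1* (1.86 to 2.79 against 10.3 to 16.7), *Ghr* to *Jak2* and *Socs2* to *Igf1* do not overlap between genotypes, while *Stat5b* to *Stat5a* does.

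To place the axis among its relatives, 6 lists of further genes were examined, in which 30 tested genes were called higher and 8 lower. With total counts alone these were 24 and 17. At most 3 genes in each direction are named per list, those with the smallest adjusted p-values. Over all tested genes, 16.2% were called higher and 13.5% lower. The lists were chosen with earlier results of these data known, so a count above these shares does not show enrichment.

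Receptors that signal through JAK2 or STAT5, or share chains with those that do, had 5 of 12 tested members called higher (median log2 fold change 0.78), and the other 7 were not called. *Prlr*, the prolactin receptor and a close relative of GHR, was at 106, 98.0, 114 and 144 CPM among *Fxr*KO livers and at 1721, 1689, 1713 and 1278 CPM in *Bcl6*LKO*Fxr*KO livers. The genotypes did not overlap, with a log2 fold change of 3.79 (SE 0.17, adjusted p = 4.88e-09, edgeR). *Lifr*, the receptor of leukemia inhibitory factor, went from between 303 and 437 CPM to between 1401 and 3206 CPM (log2 fold change 2.63, SE 0.23, adjusted p = 5.61e-06, edgeR). *Il3ra*, a chain of the interleukin-3 receptor, rose from 2.10 ± 0.36 to 6.00 ± 3.17 CPM (SD, n = 4 each). *Lepr*, the leptin receptor, was at a log2 fold change of -0.13 (adjusted p = 0.882, edgeR) and is given as a member that was not called, chosen after its value was seen.

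Of the wider IGF system, 8 of 11 tested genes were called higher and *Insr* was called lower, and 5 further genes had too few counts to be tested. *Igf2*, a fetal growth factor that the adult mouse liver nearly silences, had 4, 1, 5 and 3 counts in the controls and 57, 72, 76 and 31 counts after loss of *Bcl6*. Every *Bcl6*LKO*Fxr*KO liver was above every control (log2 fold change 4.1, SE 0.45, adjusted p = 2.48e-05, edgeR), and the size of the rise is imprecise at so few control counts. *Igf2r*, which clears IGF2, rose from 53.7 ± 4.28 to 89.5 ± 10.2 CPM, and *Igfbp7*, a secreted IGF-binding relative, from 63.6 ± 6.87 to 109 ± 20.0 CPM (SD, n = 4 each). *Insr*, the insulin receptor, fell from 105 ± 12.9 to 71.1 ± 9.37 CPM (SD, n = 4 each, adjusted p = 0.00511, edgeR).

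Beside these rises, markers of other liver cells moved in the same direction. Of all tested genes, 16.2% were called higher. Summed stellate cell markers were at 259 to 349 CPM in the *Fxr*KO group and 531 to 622 CPM in *Bcl6*LKO*Fxr*KO livers, with 7 of 10 called higher, and none of these 10 was at 0. Cholangiocyte markers were at 58.9 to 85.3 and 92.2 to 157 CPM (2 of 5 tested called higher, *Cftr* at the floor), neutrophil markers at 5.16 to 12.3 and 13.8 to 23.1 CPM (2 of 3 tested called higher, *Ly6g* at the floor) and cycling cell markers at 7.52 to 9.65 and 13.4 to 26.1 CPM (2 of 4 tested called higher). Lymphocyte markers, of which 1 of 11 was tested and was not called, summed to 3.50 to 7.31 and 7.45 to 13.8 CPM. Macrophage (439 to 605 and 585 to 1044 CPM, 3 of 10 called higher) and endothelial sums (159 to 226 and 206 to 277 CPM, 1 of 8 called higher) overlapped. Their part in the changes of *Igf2*, *Igfbp7*, *Lifr* or the axis genes was not tested, and in bulk liver a change in the number of cells of a type cannot be told apart from a change in RNA per cell.

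Genes known to respond to growth hormone, STAT5 or its secretory pattern, other than the axis genes, had 8 of 20 tested members called higher and 2 lower. *Cux2*, a repressor found in female more than in male mouse liver, had 0.312, 0.375, 2.15 and 4.73 CPM in the *Fxr*KO group and 70.6, 96.5, 96.6 and 85.6 CPM in *Bcl6*LKO*Fxr*KO livers. The genotypes were far apart (log2 fold change 5.45, SE 0.56, adjusted p = 2.42e-04, edgeR). *Fxr*KO livers 1 and 2 were at the floor, with 3 counts each, and livers 3 and 4 held 20 and 50 counts. The size of the rise is therefore imprecise. The size of the change moved with the processing, to 6.48 without *Fxr*KO liver 4 and to 6.25 with limma voom. *Trim24*, a coregulator with a female bias in mouse liver, rose from 23.2 ± 4.26 to 54.2 ± 5.85 CPM and *Bcl2l11*, which encodes the death-promoting protein BIM, from 4.73 ± 0.15 to 18.2 ± 5.88 CPM (SD, n = 4 each). *Tox*, of the same list and also linked to the growth hormone pattern, overlapped between genotypes at a log2 fold change of 0.16 (adjusted p = 0.686, edgeR). It is given as a member that was not called, chosen after its value was seen. *Nox4*, an oxidase that STAT5 has been described to induce, fell from 19.5, 25.7, 28.7 and 34.0 CPM to 3.83, 0.971, 3.80 and 1.54 CPM. *Cebpb*, a transcription factor of the acute response, fell from 56.0 ± 6.998 to 36.5 ± 4.80 CPM (SD, n = 4 each).

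Of 24 signalling partners, 4 were called higher and 4 lower. *Src*, a kinase that GHR engages beside JAK2, rose from between 2.18 and 5.41 CPM to between 8.08 and 9.25 CPM. *Mapk3*, which encodes the kinase ERK1, rose from 40.4 ± 3.52 to 62.5 ± 10.1 CPM, and *Pik3r1*, the regulatory subunit of PI3-kinase, fell from 58.5 ± 14.0 to 36.4 ± 6.45 CPM (SD, n = 4 each). The smaller changes were less stable. *Tyk2*, a JAK family kinase, was called higher at a log2 fold change of 0.37 but not with total counts alone (0.21, adjusted p = 0.156, edgeR) or without *Fxr*KO liver 3 (0.0606) or 4 (0.052). *Irs1*, an insulin receptor substrate, was called lower at -0.50 but not without *Fxr*KO liver 1 (adjusted p = 0.0657, edgeR) or 4 (0.0657) or *Bcl6*LKO*Fxr*KO liver 2 (0.0527). *Stat6*, a sister of STAT5, was called lower at -0.30, but not when 10 counts in every liver were required (0.0547, edgeR) or without any 1 of *Fxr*KO livers 1 to 4 (adjusted p from 0.0576 to 0.116) or without *Bcl6*LKO*Fxr*KO liver 1 (0.113) or 3 (0.065).

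Of the other inhibitors of cytokine signalling, 3 of 16 tested were called higher and 1 lower. *Sirpa*, an inhibitory membrane protein that JAK2 phosphorylates, rose from 28.0 ± 5.81 to 53.7 ± 5.59 CPM, and *Socs7* fell from 17.1 ± 2.70 to 11.05 ± 1.44 CPM (SD, n = 4 each). *Socs5* was called higher at a log2 fold change of 0.91, but not without *Fxr*KO liver 3 (adjusted p = 0.0502, edgeR). *Ptpn6*, which encodes the phosphatase SHP-1, was called higher at 0.44, but not with total counts alone (adjusted p = 0.129, edgeR) nor without *Fxr*KO liver 1 (0.065), 2 (0.0601) or 3 (0.102) or *Bcl6*LKO*Fxr*KO liver 2 (0.0571) or 4 (0.0585).

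Genes of the STAT3-driven acute phase response, included because SOCS3 and several receptors above also act through STAT3, had 2 of 17 called higher, and the other 15 were not called. *Itih4*, an abundant plasma protein, rose from between 2344 and 4609 CPM to between 8184 and 15399 CPM, and *Hpx*, which carries heme, from 7213 ± 2043 to 12872 ± 3172 CPM (SD, n = 4 each).

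**Figure D5:**
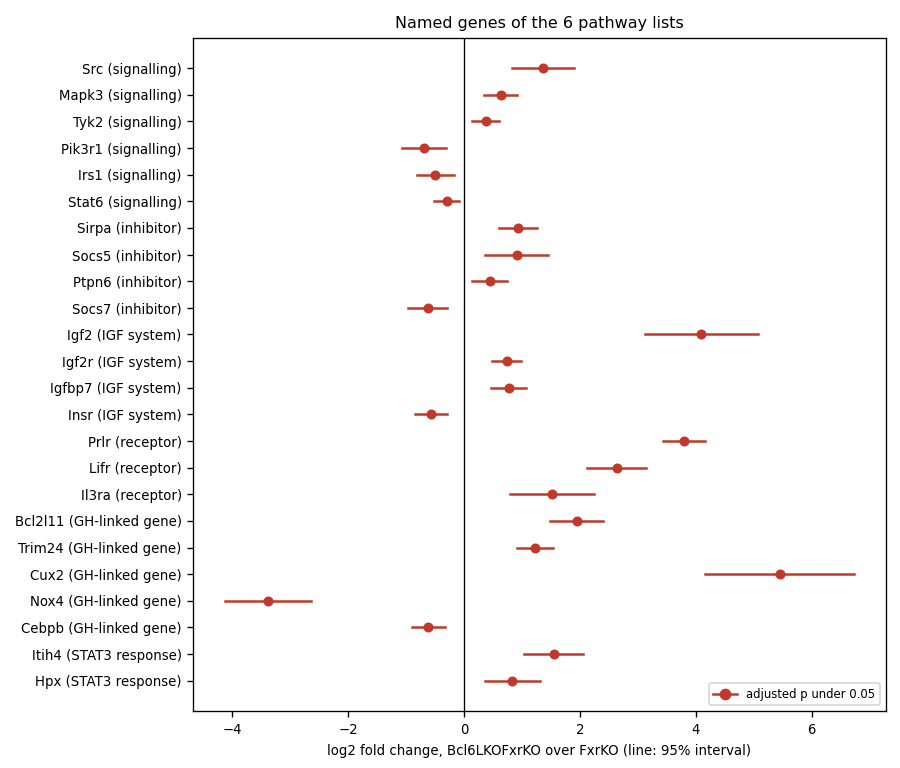
log2 fold changes of *Bcl6*LKO*Fxr*KO over *Fxr*KO livers (x axis) with 95% intervals from edgeR for the 24 genes named from the 6 lists, each with an adjusted p under 0.05. *Cux2* (5.45), *Igf2* (4.1) and *Prlr* (3.79) lie furthest to the right and *Nox4* (-3.39) furthest to the left.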

How the data were processed

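Liver poly(A) RNA was made into stranded libraries and sequenced as 100-base single-end reads. The authors used STAR 2.5.2 on mm10, allowing 4 mismatches and 1 location per read, and HOMER 4.10 to deposit unnormalized exon counts per gene beside the length of its transcript, with no strand option stated. The labels give 4 livers per genotype and name no pairs, and the numbers 1 to 4 used here are not part of them. From the counts, edgeR 4.0.16 in R 4.3.3 was used for the filter (filterByExpr), TMM factors and robust quasi-likelihood fits, with Benjamini-Hochberg adjustment over 12340 genes and calls at an adjusted p under 0.05. CPM used TMM factors, and RPKM also used the deposited length. Exact permutation tests covered 70 assignments. Totals of 7586241 to 11839503 counts per liver leave genes of few counts imprecise.

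The alternatives were DESeq2 1.42.0, limma 3.58.1 (voom with quality weights), other scalings, other filters, each liver left out, and a log2 threshold of 0.5. The ratios within livers were added after seeing the data. The fits were tested on simulated data. The genes named were the 10 axis genes, *Bcl6*, *Nr1h4* and, per list, up to 3 genes per direction with the smallest adjusted p under 0.05. The axis genes and lists were chosen with earlier results of these data known.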

Additional observations from a re-analysis of the deposited data

Results flagged for a closer look

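*Igf1* in *Fxr*KO liver 3, at 408.7 CPM, stood apart from the other controls. The next highest was 285.8 CPM and the lowest 262.7 CPM, so the gap took up 0.842 of the range of the 4 livers, which is more than Dixon's critical value for 4 samples. This was 1 of 24 groups of livers examined for a gap, and chance gives about 1 in 20. Without that liver the log2 fold change of *Igf1* was -0.14 (adjusted p = 0.643, edgeR) in place of -0.30. In the same liver *Bcl6*, *Jak2*, *Stat5b*, *Socs3* and *Ptpn1* were at the lowest values of the controls (21.2, 10.4, 42.6, 6.02 and 29.8 CPM). *Ghr* and *Igfals* were at the highest there (458 and 156 CPM).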

How the results depend on the processing

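Over the 10 axis genes, 138 of the values under the alternatives had the direction and the side of the threshold given above, 5 lost a call (all for *Socs2*) and 7 changed sign (all of genes not called). *Stat5a* came to 0.04, 0.02 and 0.00 without *Fxr*KO replicate 1, *Fxr*KO replicate 2 and *Bcl6*LKO*Fxr*KO replicate 4, and *Stat5b* to 0.03 with limma voom and to 0.06 and 0.05 without *Fxr*KO replicate 2 and *Bcl6*LKO*Fxr*KO replicate 4. *Socs3* came to 0.21 without *Fxr*KO replicate 2. With each liver left out, the ranges were -0.24 to 0.04, -0.21 to 0.06 and -0.59 to 0.21 for these 3 genes. The number of axis genes called higher fell from 2 to 1 without a filter on low counts and was 1 to 2 with each liver left out. The list genes called lower, 8 above, were 17 with total counts alone, 5 when 10 counts in every liver were required and 5 to 11 with each liver left out (5 without *Fxr*KO replicate 1 or replicate 4). When 10 counts in every liver were required, *Nox4* was not tested and *Stat6* lost its call. The cause of the other shifts was not tested. For the other 26 genes named by rule, no direction changed and 20 values lost a call, in the genes and settings named above. *Igf2*, *Cux2* and *Nox4* have no value for the filter of 10 counts in every liver, which they did not pass. The log2 changes of the ratios with each liver left out were 2.47 to 2.72 for *Ghr* to *Igf1*, 1.94 to 2.16 for *Ghr* to *Jak2* and 1.78 to 2.31 for *Socs2* to *Igf1*. The sample titles carry running numbers, some of them adjacent between genotypes, but the labels do not say what these stand for. Since the labels name no pairs, no paired analysis was made, and a part of that order in the spread was not tested. With 4 livers per genotype, differences inside the wide intervals of *Cish* and *Socs3* were not detectable.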

Other observations

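In the lists, 14 further genes were called that the rule does not name. The values below are of these and of related genes that were not called, all chosen after their values were seen. *Egr1* and *Jun*, genes of the immediate early response, rose from 13.1 ± 7.06 to 66.3 ± 16.9 CPM and from 24.3 ± 9.57 to 86.3 ± 46.6 CPM (SD, n = 4 each), whereas *Fos*, *Junb* and *Myc*, of the same response, overlapped between genotypes and were not called, at 1.21, 0.84 and 0.86 on the log2 scale (adjusted p = 0.0599, 0.201 and 0.21, edgeR). *Cdkn1a*, which encodes the cell cycle inhibitor p21, rose from 6.64 ± 4.62 to 28.0 ± 10.1 CPM. *Cd36* and *Lpl*, which act in fatty acid uptake, rose from 113 ± 20.9 to 224 ± 39.6 CPM and from 14.6 ± 3.99 to 30.8 ± 6.53 CPM (SD, n = 4 each). *Igf1r*, the receptor of IGF1, rose from 1.47 ± 0.37 to 3.52 ± 0.29 CPM and *Igfbp2* from 234 ± 62.5 to 460 ± 127 CPM (SD, n = 4 each), while *Igfbp1* was at 1.63 on the log2 scale with overlapping groups (adjusted p = 0.0719, edgeR). *Irs2*, *Igfbp3*, *Igfbp4*, *Htra1*, *Il2rb* and *Il2rg* were also called higher, at log2 fold changes between 0.46 (*Igfbp4*) and 1.35 (*Irs2*). Among these, *Irs2* overlapped between genotypes (2.93 to 9.50 against 8.50 to 24.5 CPM, adjusted p = 0.038, edgeR). *Sos1* was called lower at -0.60 (adjusted p = 0.0467, edgeR). The acute phase gene *Saa1* was at a mean of 1619 CPM in the *Fxr*KO group and 358 CPM in *Bcl6*LKO*Fxr*KO livers and was not called (adjusted p = 0.258, edgeR).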
